A study of Mus musculus with 3 samples.

Results

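DNA replication and S-phase entry genes were examined in mouse ES cells that lost *Nr0b1*, which encodes the orphan nuclear receptor Dax1. The list held 41 genes of known function, found on the array by gene name and drawn up with earlier results of these data known: 19 genes of origin licensing and the replicative helicase, 14 genes of the fork polymerases and their partners, 3 genes of nucleotide supply and 5 genes of the E2f and cyclin E axis. The arrays carried 54 probes for these 41 genes, and 40 of the 41 genes were measured above background. They stood among 22433 genes tested, out of 35018 gene names on the array.

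Male EB5 ES cells of 3 groups were compared, with 3 arrays each. *Nr0b1* KO/Y ES cells carried the deleted allele and had been passaged several times after the deletion. *Nr0b1* fl-/Y +Tx ES cells were given 4-hydroxy tamoxifen (Tx) and examined 4 days after induction of the deletion, and *Nr0b1* fl-/Y −Tx ES cells carried the floxed allele without Tx. The 3 groups are called KO/Y, +Tx and −Tx below. According to the methods of the study, the floxed parental cells carried hormone-inducible Cre (*MerCreMer*) and *Egfp* on piggyBac vectors, KO/Y lines were clones picked after Tx treatment, and EB5 cells were grown with or without Mitomycin C-treated fibroblast feeders. The labels do not say whether feeders were present in these samples, which clones were used, or whether the −Tx cells received a vehicle. The study describes the samples as biological triplicates. The comparison of +Tx with −Tx asks what changes in the first days after the deletion, and that of KO/Y with +Tx asks what changes afterwards, during growth of cells without *Nr0b1*. Tx treatment goes along with the first difference, and the picking of clones with the second. No cells given Tx without the deletion are among the samples.

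Before a cell copies its DNA, the origin recognition complex (ORC) marks the origins, and Cdc6 and Cdt1 load the Mcm2-7 helicase onto them, a step called licensing, which geminin (Gmnn) limits by holding Cdt1. In S phase the helicase is activated with the GINS complex and Mcm10, DNA polymerase alpha with primase starts each strand, and the epsilon and delta polymerases extend it on the sliding clamp Pcna, which the RFC complex loads. Ribonucleotide reductase and thymidylate synthase supply the deoxynucleotides. Many of these genes are known targets of E2F transcription factors, and ES cells have a short G1 phase and spend a large share of the cycle in S phase.

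The label of the deletion was borne out by the probe of *Nr0b1*. Its level, given here and below as log2 intensity relative to the 75th percentile of the array, was −6.37, −6.20 and −6.22 in KO/Y, −2.58, −2.66 and −2.42 in +Tx, and 4.02, 4.18 and 4.10 in −Tx. Between 28820 and 32516 probes were well above background per array, and the number of arrays limits the precision. The 9 arrays lay on 2 slides. One slide held the 3 −Tx arrays and 1 +Tx array, and the other held 2 +Tx arrays and the 3 KO/Y arrays, so that KO/Y and −Tx never shared a slide.

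Markers of other cells moved between the groups. All 16 fibroblast markers were above background on every array, and their summed level, in multiples of the 75th percentile of the array, was 402 to 456 in KO/Y, 339 to 364 in +Tx and 276 to 292 in −Tx. The summed level of 12 primitive endoderm markers was 754 to 828 in KO/Y, 582 to 599 in +Tx and 529 to 542 in −Tx, with all 12 above background in KO/Y, 7 to 10 in +Tx and 10 to 11 in −Tx. *Sparc* makes up most of that sum, and gene by gene all 12 were called higher in KO/Y over −Tx, with a median log2 fold change of 2.26 (4.78-fold) and 9 past 2-fold. In KO/Y over +Tx all 12 were higher as well (median 1.95), and in +Tx over −Tx 4 were higher and 2 lower. Of all genes, 20.5% were called higher in KO/Y over −Tx (4.72% by over 2-fold) and 12.1% in KO/Y over +Tx. In +Tx over −Tx, 11.9% of all genes were called higher and 14.7% lower, and the 2 of 12 lower markers stood near the latter share. The fibroblast markers had a median of 0.66 in KO/Y over −Tx, with all 16 called higher. The 8 ES cell markers were above background on every array, with sums of 537 to 655 in KO/Y, 644 to 694 in +Tx and 704 to 736 in −Tx. Most of that sum is *Dppa5a*, and 4 of the 8 were called lower in KO/Y over −Tx (median −0.39), where 26.4% of all genes were lower. Of the 9 listed 2-cell markers, the 8 on the array summed to 183 to 209 in KO/Y, 115 to 130 in +Tx and 21.6 to 22.3 in −Tx. In a bulk sample, fewer dividing cells and less RNA per dividing cell cannot be told apart, and the part that other cells play in the values below was not tested. By DNA staining, the study found a larger share of KO/Y ES cells in G2/M and an unaltered share in G1. How the shares of cells in each phase bear on the values below was not tested either.

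The promoters of the genes are shown first, because an E2F-type element is a known feature of many of these genes. RefSeq windows from 250 bases before to 50 bases after the start, on build GRCm38.p6, were found for 32 of the 41 genes. The 8-letter motifs TTTGGCGC, TTTGCCGC, TTTCGCGC and TTTCCCGC were searched on both strands, with overlaps counted. At least 1 of them stood in a window of 12 of the 32 genes (37.5%), against 704 of 27025 genes with a window in the reference (2.6%). TTTCCCGC was found in 7 of the genes, TTTGGCGC and TTTCGCGC in 5 each and TTTGCCGC in 0. The letters CCAAT, searched the same way, stood in 18 of the 32 genes (56.2%), against 41.1% of all genes with a window. The windows of *Mcm6*, *Mcm5* and *Mcm3*, of *Cdt1*, which had the lowest KO/Y level relative to −Tx among the genes with a motif, and of *Pola1* are printed with the motifs in capitals, followed by *Ccne1* and *Pcna*, 2 genes with large falls whose windows held none of these letters.
Mcm6 (chr1:128359656-128359955, minus strand): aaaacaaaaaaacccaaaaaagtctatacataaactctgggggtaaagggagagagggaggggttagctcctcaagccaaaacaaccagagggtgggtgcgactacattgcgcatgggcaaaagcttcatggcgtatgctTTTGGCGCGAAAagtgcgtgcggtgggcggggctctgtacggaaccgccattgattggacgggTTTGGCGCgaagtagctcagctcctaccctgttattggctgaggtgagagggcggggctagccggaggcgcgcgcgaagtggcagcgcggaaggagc
Mcm5 (chr8:75109259-75109558, plus strand): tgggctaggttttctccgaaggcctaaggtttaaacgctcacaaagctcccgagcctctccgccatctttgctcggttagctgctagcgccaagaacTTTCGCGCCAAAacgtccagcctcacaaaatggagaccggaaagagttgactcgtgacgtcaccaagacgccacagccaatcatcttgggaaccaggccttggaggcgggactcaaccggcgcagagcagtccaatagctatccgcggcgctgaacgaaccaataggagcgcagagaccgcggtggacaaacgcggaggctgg
Mcm3 (chr1:20820263-20820562, minus strand): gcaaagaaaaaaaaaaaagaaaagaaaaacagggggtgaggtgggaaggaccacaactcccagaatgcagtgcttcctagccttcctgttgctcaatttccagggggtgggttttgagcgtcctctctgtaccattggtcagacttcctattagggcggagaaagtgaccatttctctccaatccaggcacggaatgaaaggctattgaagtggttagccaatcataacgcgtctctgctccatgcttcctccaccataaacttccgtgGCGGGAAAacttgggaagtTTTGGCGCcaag
Cdt1 (chr8:122567765-122568064, plus strand): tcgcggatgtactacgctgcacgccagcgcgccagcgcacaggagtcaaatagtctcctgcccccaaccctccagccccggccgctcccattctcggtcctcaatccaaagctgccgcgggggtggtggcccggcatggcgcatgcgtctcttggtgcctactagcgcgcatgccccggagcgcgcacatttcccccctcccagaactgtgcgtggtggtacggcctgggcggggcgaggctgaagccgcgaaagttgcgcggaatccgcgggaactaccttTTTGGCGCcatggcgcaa
Pola1 (chrX:93632106-93632405, minus strand): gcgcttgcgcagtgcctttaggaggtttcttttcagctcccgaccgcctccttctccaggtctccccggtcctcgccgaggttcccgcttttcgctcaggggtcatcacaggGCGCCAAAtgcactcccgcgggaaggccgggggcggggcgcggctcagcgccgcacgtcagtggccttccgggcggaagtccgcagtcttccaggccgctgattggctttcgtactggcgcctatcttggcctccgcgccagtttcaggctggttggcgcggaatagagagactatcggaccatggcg
Ccne1 (chr7:38107441-38107740, minus strand): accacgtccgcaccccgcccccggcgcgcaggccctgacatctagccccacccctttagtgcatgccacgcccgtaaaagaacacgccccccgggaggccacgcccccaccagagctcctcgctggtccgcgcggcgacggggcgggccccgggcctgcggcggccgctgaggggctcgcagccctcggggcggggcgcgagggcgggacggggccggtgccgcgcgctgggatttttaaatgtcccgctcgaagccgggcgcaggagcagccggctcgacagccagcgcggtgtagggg
Pcna (chr2:132253131-132253430, minus strand): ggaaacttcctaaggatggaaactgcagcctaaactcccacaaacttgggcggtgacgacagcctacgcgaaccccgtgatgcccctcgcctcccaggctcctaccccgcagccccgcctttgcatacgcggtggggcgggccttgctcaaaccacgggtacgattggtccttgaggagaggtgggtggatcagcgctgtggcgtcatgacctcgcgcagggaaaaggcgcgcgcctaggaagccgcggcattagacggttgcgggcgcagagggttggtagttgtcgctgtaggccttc

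The *Mcm6* window held 3 motifs and the *Mcm5* window 2. In both, 2 motifs of opposite strands overlapped, and the 12 letters TTTGGCGCGAAA in *Mcm6* are the reverse complement of TTTCGCGCCAAA in *Mcm5*. The *Mcm3* window held 2 motifs, both after the start. In KO/Y relative to −Tx, 9 of the 12 genes with a motif and 17 of the 20 without one were called lower, where 26.4% of all genes were lower. The medians of the log2 fold changes of the 2 sets were −0.36 and −0.48, and the difference between the sets was not tested. *Ccne1*, *Pcna*, *Pola2*, *Mcm10*, *Rfc5* and *Mybl2*, the 6 genes with the largest falls, were all in the set without a motif. A motif here is a match of letters, and its absence says only that these letters are not in this window.

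In KO/Y relative to −Tx, 30 of the 40 genes measured were lower and 0 were higher at an adjusted p under 0.05 (limma, Benjamini-Hochberg over all 22433 genes), where 26.4% of all genes were lower and 20.5% were higher. At an unadjusted p under 0.05 the number of these genes that were higher was also 0, where 22.9% of all genes were higher. The median log2 fold change of the 40 genes was −0.39, a fold of 0.762, against −0.06 over all genes. The falls were small in size: *Ccne1* alone passed 2-fold, where 2.85% of all genes were lower and 4.72% were higher by over 2-fold. On the arrays, 33 of the 40 genes had all KO/Y values below all −Tx values (33.2% of all genes), and 0 had all above them (24.5% of all genes). With slide as a block in the fit, which then rests on the +Tx arrays to link the slides, 17 of the 30 calls were kept and the median was −0.47 (12.3% of all genes lower).

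In +Tx relative to −Tx, after 4 days, 12 of the 40 genes were lower and 0 were higher, where 14.7% of all genes were lower and 11.9% were higher, and 0 passed 2-fold (0.762% of all genes were lower and 1.74% were higher by over 2-fold). At an unadjusted p under 0.05, 0 were higher (16.4% of all genes). All +Tx values lay below all −Tx values for 22 of the 40 genes (28.9% of all genes) and above them for 0 (18.2% of all genes). The median was −0.18, against −0.06 over all genes. Only 1 +Tx array shared a slide with the −Tx arrays. With slide as a block, *Rfc5* and *Rfc4* kept their calls and the other 10 did not, and these 2 of 40 genes were no more than the share of all genes then called lower (5.19%). The median was −0.20 in that fit. In KO/Y relative to +Tx, 16 of the 40 genes were lower and 0 were higher, where 14.1% of all genes were lower and 12.1% were higher, and *Ccne1* passed 2-fold (1.05% of all genes were lower and 2.37% were higher by over 2-fold). At an unadjusted p under 0.05, 0 were higher (17.8% of all genes). All KO/Y values lay below all +Tx values for 24 genes (21.3% of all genes) and above them for 1 (18.4% of all genes). The median was −0.18, against 0.01 over all genes. Within the slide that holds 3 KO/Y arrays and 2 +Tx arrays, 6 genes kept the call: *Ccne1*, *Pola2*, *Pcna*, *Mcm10*, *Mybl2* and *Rrm1* (6% of all genes were lower there). Most genes of the list were bright, and among the 11101 genes above the 75th percentile of the arrays 34.1% were lower in KO/Y relative to −Tx, 20.1% in +Tx relative to −Tx and 17.9% in KO/Y relative to +Tx.

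**Figure D1:**
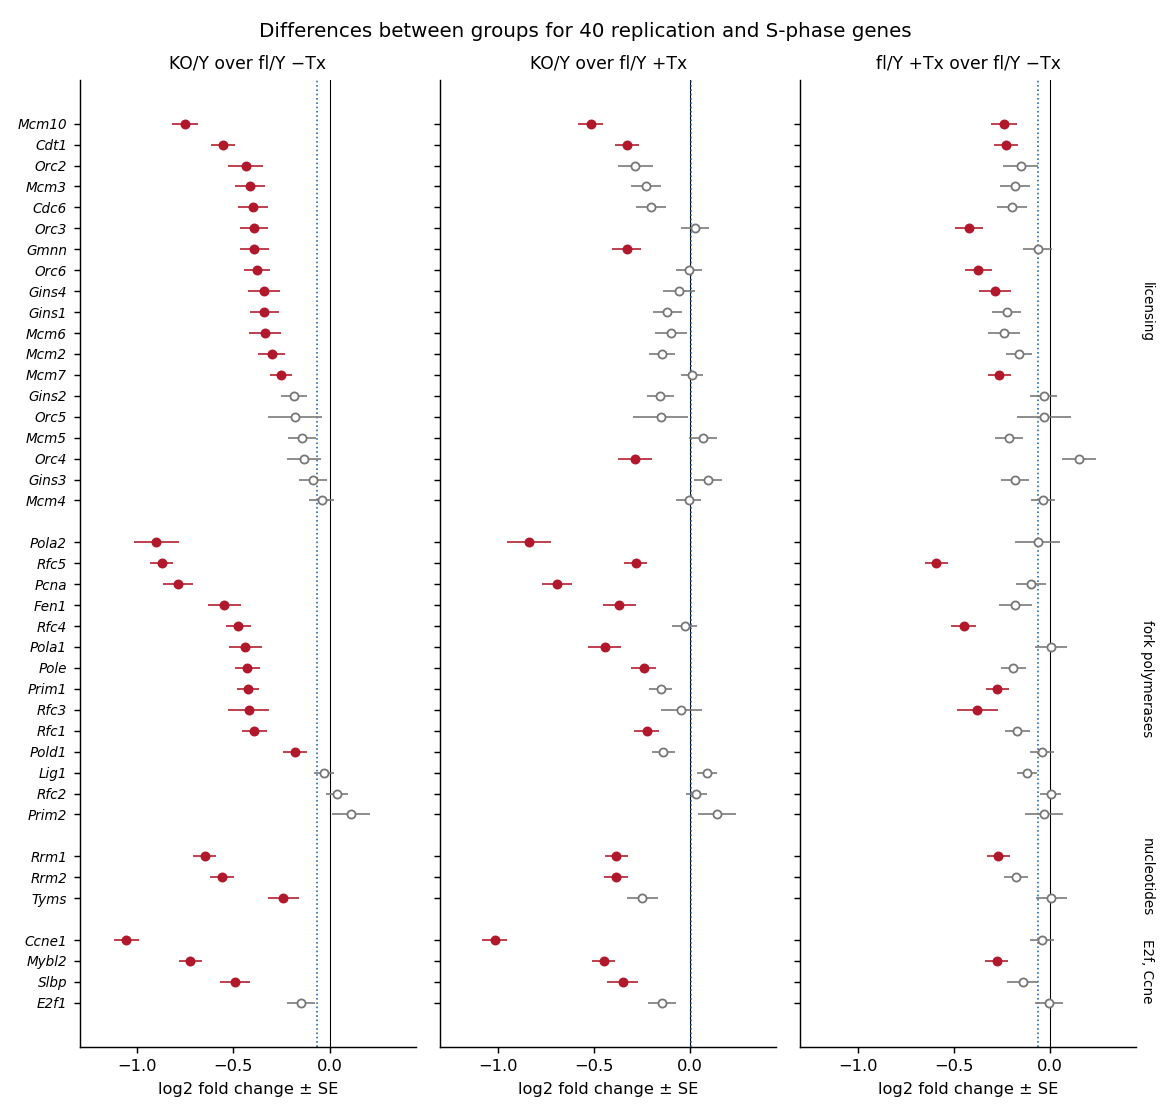
Log2 fold change ± SE of 40 genes, grouped by role, in KO/Y over −Tx, KO/Y over +Tx and +Tx over −Tx (3 arrays per group). Filled red points have an adjusted p under 0.05 and the dotted blue line is the median of all 22433 genes; 30, 16 and 12 genes were called lower in the 3 panels and 0 were called higher.

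The E2f and cyclin E group is described gene by gene. *Ccne1* encodes cyclin E1, the partner of Cdk2 at the G1/S transition, and fell most of the 40 genes. Its level was 4.46, 4.52 and 4.62 in KO/Y, 5.56, 5.59 and 5.50 in +Tx, and 5.54, 5.61 and 5.62 in −Tx. The KO/Y arrays stood apart from both other groups, and the +Tx and −Tx arrays overlapped. The log2 fold change was −1.06 ± 0.06 (SE) in KO/Y over −Tx (2.08-fold lower, adjusted p = 4.82e-06), −1.02 in KO/Y over +Tx (adjusted p = 1.98e-05) and −0.04 in +Tx over −Tx (adjusted p = 0.67). A second *Ccne1* probe gave −1.23, −1.16 and −0.06 in the same order. *Ccne1* kept its call in all 20 alternative settings run for KO/Y over −Tx and all 21 for KO/Y over +Tx.

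*Mybl2*, a Myb family factor that acts on late cell cycle genes, was at 6.22, 6.35 and 6.36 in KO/Y, 6.79, 6.76 and 6.71 in +Tx, and 7.01, 7.05 and 7.04 in −Tx. The 3 groups did not overlap, with +Tx in between. Its log2 fold change was −0.72 ± 0.06 in KO/Y over −Tx (adjusted p = 3.09e-05), −0.45 in KO/Y over +Tx (adjusted p = 0.00109) and −0.28 in +Tx over −Tx (adjusted p = 0.0118). A second *Mybl2* probe gave smaller differences of −0.33, −0.20 and −0.13, of which the first was called. With slide as a block, the call of *Mybl2* in +Tx over −Tx was lost. The study, which called genes at over 2-fold, states that *Mybl2* expression was not altered between −Tx and +Tx. The calls given here have no fold limit. *Slbp*, which binds the stem-loop of histone mRNA and is needed for its processing, was at 0.03, −0.17 and −0.06 in KO/Y, 0.39, 0.18 and 0.28 in +Tx, and 0.37, 0.41 and 0.50 in −Tx. KO/Y was below both other groups, which overlapped each other. The log2 fold change of *Slbp* was −0.49 ± 0.08 in KO/Y over −Tx (adjusted p = 0.00111, 0.13 with slide as a block) and −0.35 in KO/Y over +Tx (adjusted p = 0.0132).

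*E2f1*, an activator of this gene set, was at 1.97, 2.16 and 2.13 in KO/Y, 2.23, 2.27 and 2.19 in +Tx, and 2.32, 2.18 and 2.22 in −Tx. All KO/Y arrays were below the others, but the difference of −0.15 ± 0.07 from −Tx did not pass the test (adjusted p = 0.123). The one probe of *Ccne2*, the gene of cyclin E2, was well above background on 0 of 3 KO/Y arrays, 1 of 3 +Tx arrays and 0 of 3 −Tx arrays, so no fold is given for it.

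**Figure D2:**
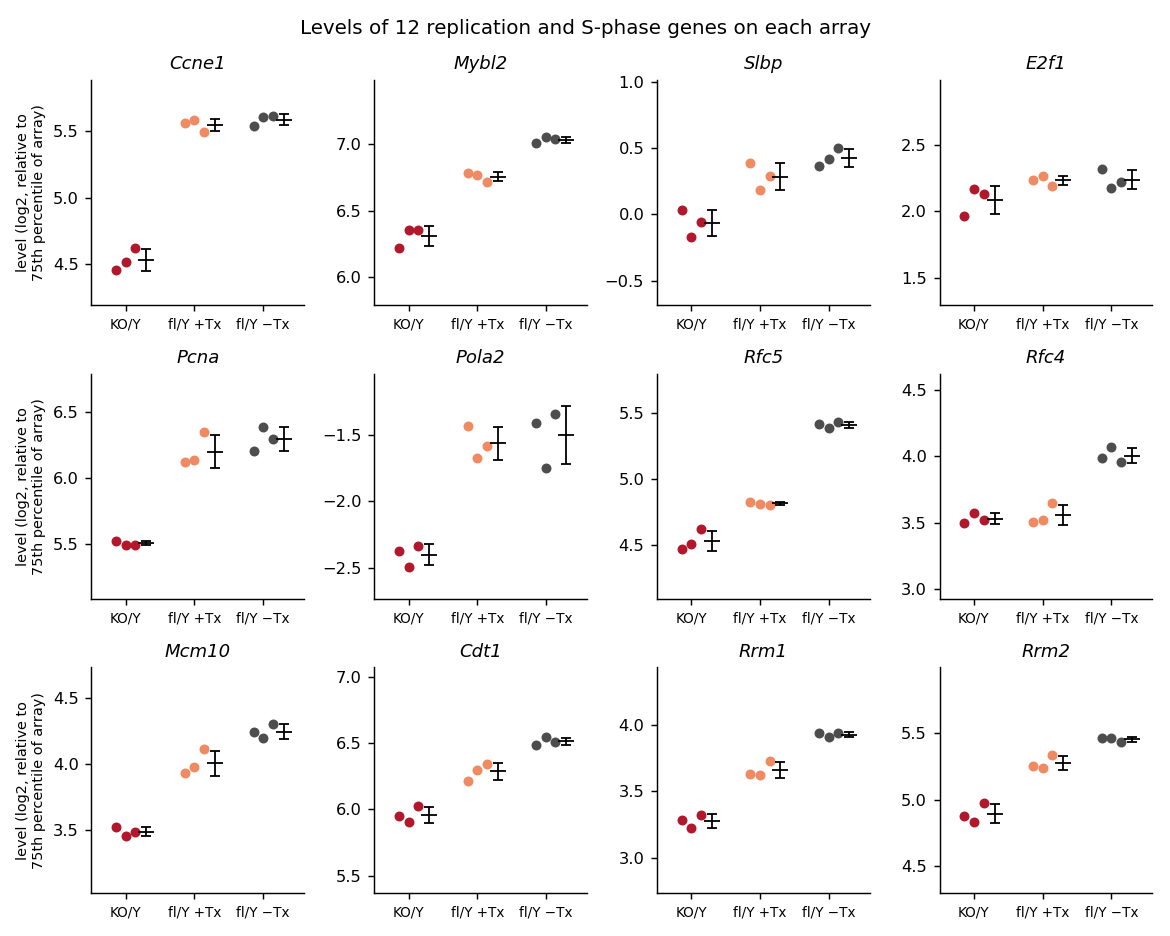
Level (log2 intensity relative to the 75th percentile of the array) of 12 genes in KO/Y, +Tx and −Tx, with 1 point per array and the mean ± SD beside it (n = 3 arrays per group); each panel spans the same log2 range. *Ccne1*, *Pcna* and *Pola2* were lower in KO/Y than on every array of the other 2 groups, *Rfc4* was already lower in +Tx, and *Mybl2*, *Rrm1*, *Mcm10* and *Cdt1* were in between in +Tx.

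Of the 19 licensing and helicase genes, 13 were lower in KO/Y over −Tx, 4 in KO/Y over +Tx and 6 in +Tx over −Tx. The shares of all genes were 26.4%, 14.1% and 14.7%. The 4 genes (21.1%) stood near the 17.9% of genes above the 75th percentile that were lower in KO/Y over +Tx. Their medians were −0.34, −0.14 and −0.20 in this order. *Mcm10*, which helps to activate the helicase and to recruit polymerase alpha, fell most. It was at 3.53, 3.46 and 3.49 in KO/Y, 3.93, 3.98 and 4.11 in +Tx, and 4.24, 4.20 and 4.30 in −Tx. The groups did not overlap, and the log2 fold change was −0.75 ± 0.07 in KO/Y over −Tx (adjusted p = 4.09e-05), −0.52 in KO/Y over +Tx (adjusted p = 0.000862) and −0.24 in +Tx over −Tx (adjusted p = 0.0311). *Cdt1*, the loader of the helicase, was at 5.95, 5.90 and 6.02 in KO/Y, 6.22, 6.30 and 6.34 in +Tx, and 6.49, 6.54 and 6.51 in −Tx. It had the same stepwise order, with log2 fold changes of −0.55 ± 0.06 in KO/Y over −Tx, −0.33 in KO/Y over +Tx and −0.23 in +Tx over −Tx (adjusted p = 0.000142, 0.00558 and 0.0277). Of 21 alternative settings, 12 kept the +Tx over −Tx call of *Cdt1* and 11 kept that of *Mcm10*. Both of these calls were lost with slide as a block.

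The subunits of ORC, which binds origins as one complex, were called in different comparisons. *Orc3* was at 2.41, 2.39 and 2.53 in KO/Y, 2.43, 2.39 and 2.44 in +Tx, and 2.93, 2.86 and 2.72 in −Tx. *Orc6* was at 3.50, 3.59 and 3.57 in KO/Y, 3.53, 3.48 and 3.67 in +Tx, and 3.98, 3.92 and 3.89 in −Tx. For both, the KO/Y and +Tx arrays overlapped and lay below all −Tx arrays. *Orc3* differed by −0.39 ± 0.07 in KO/Y over −Tx, 0.03 in KO/Y over +Tx and −0.42 in +Tx over −Tx (adjusted p = 0.00234, 0.816 and 0.0044), and *Orc6* by −0.38, −0.01 and −0.37 (adjusted p = 0.00187, 0.961 and 0.00534). With slide as a block neither kept a call: the adjusted p was 0.0999 for *Orc3* and 0.0592 for *Orc6* in KO/Y over −Tx, and 0.0595 and 0.0517 in +Tx over −Tx. *Orc2* was lower in KO/Y, at −0.27, −0.40 and −0.32, against −0.18, −0.01 and 0.06 in +Tx and 0.00, 0.07 and 0.25 in −Tx, a log2 fold change of −0.44 ± 0.09 from −Tx (adjusted p = 0.00415). *Orc4* was called lower in KO/Y over +Tx alone (−0.28 ± 0.09, adjusted p = 0.0419), a call that 7 of 21 alternative settings kept, and *Orc5* was called in no comparison. A second *Orc4* probe of like brightness differed by 0.008 in KO/Y over +Tx (adjusted p = 0.978 in a fit of all probes).

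The Mcm2-7 subunits, which work as one ring, did not fall alike. *Mcm3* was at 5.598, 5.507 and 5.595 in KO/Y, 5.786, 5.661 and 5.945 in +Tx, and 5.955, 6.001 and 5.983 in −Tx, a log2 fold change of −0.41 ± 0.08 in KO/Y over −Tx (adjusted p = 0.00255). *Mcm6*, *Mcm2* and *Mcm7* were also called lower in KO/Y over −Tx, by −0.34, −0.30 and −0.25, and *Mcm7* alone of the 6 was called in +Tx over −Tx (−0.26 ± 0.06, adjusted p = 0.0123). *Mcm4* was at 4.73, 4.64 and 4.70 in KO/Y, 4.66, 4.64 and 4.79 in +Tx, and 4.75, 4.69 and 4.75 in −Tx. *Mcm4* differed by −0.04 ± 0.06 and *Mcm5* by −0.14 ± 0.07 in KO/Y over −Tx, and neither passed the test (adjusted p = 0.635 and 0.148). The differences between subunits were not themselves tested. With slide as a block, 0 of the 4 Mcm2-7 calls in KO/Y over −Tx were kept.

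*Gmnn*, the inhibitor of licensing, was at 2.07, 1.94 and 2.02 in KO/Y, 2.34, 2.23 and 2.44 in +Tx, and 2.33, 2.47 and 2.41 in −Tx. KO/Y was below both other groups, which overlapped, and the log2 fold change was −0.33 ± 0.07 in KO/Y over +Tx (adjusted p = 0.0128) and −0.39 in KO/Y over −Tx (adjusted p = 0.0026, 0.0943 with slide as a block). Of the GINS subunits, *Gins4* was called lower in +Tx over −Tx (−0.28 ± 0.08, adjusted p = 0.0335) and in KO/Y over −Tx (−0.34), and *Gins1* in KO/Y over −Tx (−0.34). *Gins2* and *Gins3* were called in no comparison. With slide as a block, *Gins1* kept its call and *Gins4* lost both of its calls (adjusted p = 0.157 in KO/Y over −Tx and 0.181 in +Tx over −Tx).

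Of the 14 genes of the fork polymerases and their partners, 11 were lower in KO/Y over −Tx, 7 in KO/Y over +Tx and 4 in +Tx over −Tx, with medians of −0.43, −0.19 and −0.14. The shares of all genes lower were 26.4%, 14.1% and 14.7% in this order. *Pola2*, the regulatory subunit of polymerase alpha, was at −2.37, −2.49 and −2.34 in KO/Y, −1.43, −1.68 and −1.59 in +Tx, and −1.41, −1.75 and −1.34 in −Tx. *Pcna*, the sliding clamp, was at 5.52, 5.50 and 5.50 in KO/Y, 6.12, 6.13 and 6.34 in +Tx, and 6.20, 6.38 and 6.29 in −Tx. For both genes, KO/Y lay below every other array and +Tx overlapped with −Tx. *Pola2* differed by −0.90 ± 0.12 in KO/Y over −Tx, −0.84 in KO/Y over +Tx and −0.06 in +Tx over −Tx (adjusted p = 0.000312, 0.00121 and 0.717), and *Pcna* by −0.79 ± 0.08, −0.69 and −0.10 (adjusted p = 8.01e-05, 0.000434 and 0.402). *Pola2* was dim, and the size of its fall depended on the processing. Over the alternatives it ran from −1.03 to −0.55 in KO/Y over −Tx and from −0.89 to −0.50 in KO/Y over +Tx, with the calls kept. *Pola1*, the catalytic subunit of polymerase alpha, was at 2.01, 1.84 and 2.02 in KO/Y, 2.34, 2.31 and 2.54 in +Tx, and 2.43, 2.30 and 2.44 in −Tx, and differed by −0.44 ± 0.09 in KO/Y over +Tx (adjusted p = 0.00609) and 0.01 in +Tx over −Tx (adjusted p = 0.969).

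*Prim1* and *Prim2* encode the primase subunits, which work with polymerase alpha. *Prim1* was at 3.62, 3.60 and 3.69 in KO/Y, 3.75, 3.78 and 3.84 in +Tx, and 4.09, 4.08 and 4.01 in −Tx, and fell by 0.43 ± 0.06 on the log2 scale in KO/Y over −Tx and by 0.27 in +Tx over −Tx (adjusted p = 0.00045 and 0.0106). *Prim2* was at 0.04, −0.13 and 0.12 in KO/Y, against −0.20, −0.03 and −0.05 in −Tx, and this probe was called in no comparison. A dimmer *Prim2* probe on another transcript was lower in KO/Y over −Tx by −0.32 (adjusted p = 0.0468 in a fit of all probes). *Fen1*, the flap endonuclease of Okazaki fragments, was at 4.31, 4.12 and 4.18 in KO/Y, 4.52, 4.46 and 4.73 in +Tx, and 4.71, 4.81 and 4.74 in −Tx, a log2 fold change of −0.55 ± 0.09 in KO/Y over −Tx and −0.37 in KO/Y over +Tx (adjusted p = 0.000901 and 0.0145). *Lig1*, the ligase that seals these fragments, differed by −0.03 ± 0.05 in KO/Y over −Tx and was called in no comparison. *Pole* and *Pold1*, the catalytic subunits of the epsilon and delta polymerases, differed by −0.43 and −0.18 in KO/Y over −Tx (adjusted p = 0.000724 and 0.0407), and the *Pold1* call held in 8 of 20 alternatives.

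The RFC subunits *Rfc5* and *Rfc4* had the 2 largest falls of +Tx. *Rfc5* was at 4.47, 4.51 and 4.62 in KO/Y, 4.83, 4.82 and 4.81 in +Tx, and 5.42, 5.38 and 5.43 in −Tx. It had the largest difference of the 40 genes in +Tx over −Tx, −0.59 ± 0.06 (1.51-fold lower, adjusted p = 0.000272), with −0.87 in KO/Y over −Tx (adjusted p = 9.26e-06) and −0.28 in KO/Y over +Tx (adjusted p = 0.00871). *Rfc4* was at 3.50, 3.57 and 3.52 in KO/Y, 3.51, 3.52 and 3.65 in +Tx, and 3.99, 4.07 and 3.96 in −Tx, and differed by −0.45 ± 0.06 in +Tx over −Tx (adjusted p = 0.00169) and −0.03 in KO/Y over +Tx (adjusted p = 0.803). *Rfc3* was at 0.33, 0.21 and 0.25 in KO/Y, 0.21, 0.27 and 0.44 in +Tx, and 0.48, 0.86 and 0.71 in −Tx, and differed by −0.38 ± 0.11 in +Tx over −Tx (adjusted p = 0.031, 0.0921 with slide as a block). *Rfc1*, the large subunit, was lower in KO/Y over −Tx (−0.39, adjusted p = 0.00126), and *Rfc2*, at 2.71 to 2.82 in KO/Y and 2.72 to 2.74 in −Tx, was called in no comparison.

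The 3 genes of nucleotide supply were all lower in KO/Y over −Tx (26.4% of all genes). *Rrm1*, the large subunit of ribonucleotide reductase, was at 3.29, 3.22 and 3.33 in KO/Y, 3.63, 3.62 and 3.73 in +Tx, and 3.94, 3.91 and 3.94 in −Tx. *Rrm2*, the small subunit, was at 4.88, 4.83 and 4.97 in KO/Y, 5.25, 5.24 and 5.34 in +Tx, and 5.46, 5.47 and 5.43 in −Tx. For both, the 3 groups did not overlap and +Tx was in between. *Rrm1* differed by −0.65 ± 0.06 in KO/Y over −Tx, −0.38 in KO/Y over +Tx and −0.27 in +Tx over −Tx (adjusted p = 4.53e-05, 0.00207 and 0.0117), and *Rrm2* by −0.56 ± 0.06, −0.38 and −0.18 (adjusted p = 0.000129, 0.00253 and 0.064). *Tyms*, thymidylate synthase, was at −0.42, −0.51 and −0.50 in KO/Y, −0.38, −0.12 and −0.19 in +Tx, and −0.16, −0.31 and −0.24 in −Tx, a log2 fold change of −0.24 ± 0.08 in KO/Y over −Tx (adjusted p = 0.038) that 15 of 20 alternatives kept.

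The step from +Tx to KO/Y was tested against that from −Tx to +Tx by their difference, KO/Y over +Tx minus +Tx over −Tx. The groups are not a time course of a single population, because KO/Y lines were picked clones and +Tx cells had recently been given Tx. Time, clone choice and Tx treatment cannot be told apart in this contrast. Both steps share the +Tx arrays, and this contrast was added after the values had been seen. The second step was more negative for *Ccne1* (−0.975 ± 0.11, adjusted p = 0.00119), *Pola2* (−0.77 ± 0.20, adjusted p = 0.0438) and *Pcna* (−0.595 ± 0.14, adjusted p = 0.0275), which is 3 of the 40 genes, where 5.87% of all genes had a more negative second step. It was less negative for 1 gene, *Rfc4* (0.42 ± 0.11, adjusted p = 0.0457), where 5.1% of all genes had a less negative second step. *Ccne1* kept this call in all 13 alternatives run, *Pcna* in 6, *Pola2* in 5 and *Rfc4* in 4, with the sign unchanged in all of them. *Orc3* (0.45, adjusted p = 0.059), *Orc6* (0.37, adjusted p = 0.089) and *Pola1* (−0.45, adjusted p = 0.0966) did not pass the test.

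**Figure D3:**
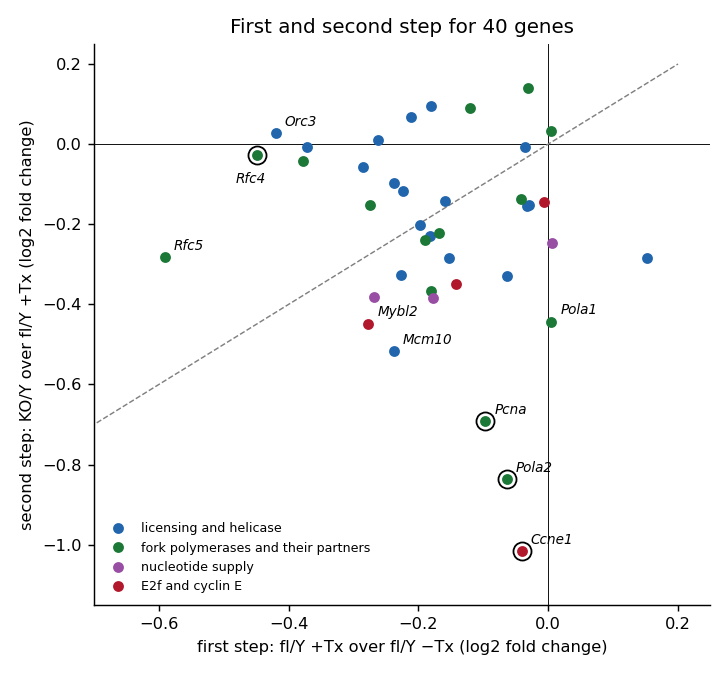
Log2 fold change of the first step (+Tx over −Tx, x axis) and of the second step (KO/Y over +Tx, y axis) of 40 genes, coloured by role; the steps share the +Tx arrays, and points on the dashed line have steps of equal size. Circles mark the 4 genes whose steps differed at an adjusted p under 0.05: *Ccne1*, *Pola2* and *Pcna* lie below the line and *Rfc4* above it.

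Probes of one gene did not always give one direction. Of the 40 genes, 12 had more than 1 probe above background, and the brightest was used. *Cdc6*, the loader that works with Cdt1, had its brightest probe at 0.76, 0.57 and 0.77 in KO/Y, 0.86, 0.84 and 1.01 in +Tx, and 1.08, 1.07 and 1.15 in −Tx, a log2 fold change of −0.40 ± 0.08 in KO/Y over −Tx (adjusted p = 0.00285, 0.0611 with slide as a block). A dimmer *Cdc6* probe lay at −0.82, −1.07 and −0.90 in KO/Y, −1.75, −1.47 and −1.12 in +Tx, and −1.80, −1.86 and −1.78 in −Tx, and was higher in KO/Y over −Tx by 0.88 (adjusted p = 0.00144 in a fit of all probes). On build mm9 the first probe lies at chr11:98782986-98783045 and the dimmer one at chr11:98785169-98785228, and both are assigned to the same transcript. A dim second probe of *Orc3* was likewise higher in KO/Y over −Tx (0.47, adjusted p = 0.0497), as were a probe of another *Pole* transcript (0.24, adjusted p = 0.0268) and a probe under the name *Gmnn* that lies on the opposite strand of its main probe (0.61, adjusted p = 0.0131). A second *Rfc5* probe on another transcript differed by 0.05 in KO/Y over −Tx (adjusted p = 0.793), where the brightest differed by −0.87. With the mean of the probes in place of the brightest, *Cdc6*, *Orc3* and *Gmnn* had positive values in KO/Y over −Tx (0.24, 0.04 and 0.11, adjusted p = 0.0958, 0.741 and 0.251) and 26 of the 30 calls were kept. In +Tx over −Tx, *Gmnn* was then called higher (0.23, adjusted p = 0.0463). The opposite-strand probe alone differed by 0.53 there, and the main *Gmnn* probe by −0.06.

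Array by array, the median of the 40 genes relative to the mean of −Tx was −0.38, −0.46 and −0.35 on the KO/Y arrays, −0.20, −0.21 and −0.09 on the +Tx arrays, and −0.01, 0.01 and 0.00 on the −Tx arrays. The 3 groups did not overlap. The +Tx array on the slide of the −Tx arrays had −0.20, between the values of −0.21 and −0.09 of the +Tx arrays on the slide of the KO/Y arrays. The third +Tx array was the nearest to −Tx, and without it 19 genes in place of 12 were called lower in +Tx over −Tx.

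**Figure D4:**
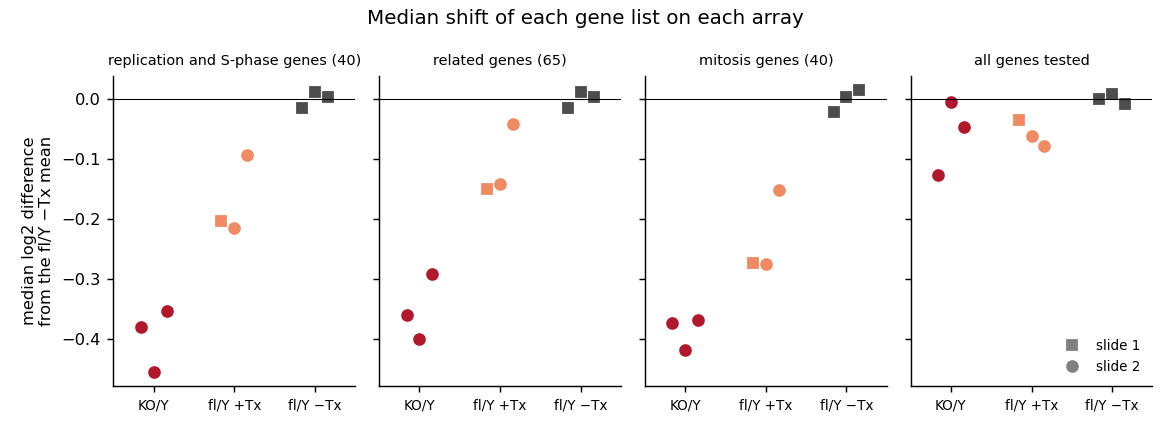
Median log2 difference of each array from the mean of the −Tx arrays, for the 40 replication and S-phase genes, 65 related replication genes, 40 mitosis genes and all genes tested; squares are arrays on 1 slide and circles on the other. The KO/Y arrays lie lowest in the first 3 panels, with the 40 genes at −0.35 to −0.46, and the +Tx arrays of both slides lie between KO/Y and −Tx.

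Other genes of the pathway were read from a list of 67 related genes, of which 65 were measured. In KO/Y over −Tx, 39 were lower and 7 higher, with a median of −0.39. The largest falls were those of *Tfdp1* (−1.35 ± 0.09), the dimerization partner of E2f factors, *E2f8* (−1.05), an atypical E2f repressor, and *Cdkn1c* (−1.05), an inhibitor of cyclin-dependent kinases (adjusted p = 6.89e-06, 1.02e-05 and 1.21e-05). *Mcm9*, an Mcm-like helicase of DNA repair, rose by 0.93 ± 0.12, and the D-type cyclins *Ccnd2* and *Ccnd1* by 0.64 and 0.54 (adjusted p = 0.000301, 0.000422 and 0.000117). In KO/Y over +Tx, 31 were lower and 5 higher, led by *E2f2* (−0.82 ± 0.06), *E2f8* (−0.75) and *Tfdp1* (−0.75) among the lower and by *Mcm9* (0.82), *Rbl2* (0.37) and *Ccnd3* (0.27) among the higher. In +Tx over −Tx, 15 were lower and 5 higher, and the largest values were −0.81 for *Cdkn1c*, −0.60 for *Tfdp1* and −0.53 for *E2f5*, and 0.39 for *Ccnd2* and 0.38 for *Pold3*. The shares of all genes are those given above for each comparison.

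Genes that act after S phase fell too. Of 40 mitosis genes, 30 were lower and 1 was higher in KO/Y over −Tx (median −0.40). In KO/Y over +Tx, 17 were lower and 1 higher (median −0.13), and in +Tx over −Tx 18 were lower and 0 higher (median −0.23). Of all genes, 26.4%, 14.1% and 14.7% were lower and 20.5%, 12.1% and 11.9% higher in this order. At an unadjusted p under 0.05, 2 mitosis genes were higher in +Tx over −Tx (16.4% of all genes). *Foxm1*, a transcription factor of G2/M genes, *Mad2l1*, of the spindle checkpoint, and *Aurkb*, a mitotic kinase, led in KO/Y over −Tx, with −0.89 ± 0.07, −0.88 and −0.86. *Top2a*, *Mad2l1* and *Bub1* led in KO/Y over +Tx, with −0.58, −0.55 and −0.55, and *Cenpa*, *Cdc25c* and *Ccnb2* in +Tx over −Tx, with −0.60, −0.52 and −0.48. *Pttg1*, which encodes securin, was the only gene called higher, by 0.19 ± 0.06 in KO/Y over −Tx and 0.54 in KO/Y over +Tx (adjusted p = 0.0297 and 0.000369). In +Tx over −Tx the same gene was called lower, at −0.35 (adjusted p = 0.0039). Whether the S-phase and mitosis genes differed from each other was not tested.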

How the data were processed

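Total RNA was labelled with Cy3 and hybridised to 1-colour Agilent SurePrint G3 Mouse GE microarrays. The authors obtained the intensity values with Agilent Feature Extraction 10.7.3.1, and per the file headers each deposited intensity is a background-subtracted signal of a spot on a linear scale. The authors also deposited a signal value per probe and group, which correlated at 1 with the group means of the scanner values and served only as an alternative. Settings of the NIA software named by the study, and the replicate behind each array, were not found in the labels or methods, so arrays were numbered by slide position.

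In R 4.3.3 with data.table (version 1.17.8), outlier spots (117 to 178 per array) were dropped, replicate spots averaged and log2 intensities scaled to the 75th percentile of their own array. A probe was kept if it was well above background on all 3 arrays of any group, and each gene was read from its brightest probe. limma 3.58.1 (lmFit, eBayes) was fitted to all 22433 genes over the 9 arrays with Benjamini-Hochberg adjustment, and a call is an adjusted p under 0.05. RefSeq accessions named 27235 probes. Promoter sequences are those of RefSeq on GRCm38.p6, and probe positions those of the array annotation on mm9. The script was tested on simulated data.

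Members, related lists and tests were chosen with earlier results of these data known, so lists were described by counts and medians without a test. Named genes were all of the nucleotide supply and E2f and cyclin E groups, the 4 called genes with the largest change per comparison of the other 2 groups, and the 3 largest in each direction of the related and mitosis lists; others named were chosen after their values were seen, and 1 gene that the rule names is not reported here. Alternatives changed background correction, scaling, the filter, slide, variance, probes, outliers and the arrays included.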

Additional observations from a re-analysis of the deposited data

How the results depend on the processing

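Alternatives were read for the 40 genes alone, and the related and mitosis genes named in the report were not read under any. Among the called of the 40 genes, named values kept their direction, apart from the probe mean for *Cdc6*, *Orc3* and *Gmnn* given there. The median of the 40 genes became −0.095 in +Tx over −Tx and −0.317 in KO/Y over −Tx with quantile normalization, −0.341 in KO/Y over −Tx with the mean of the probes, −0.465 in KO/Y over −Tx with slide as a block, and −0.23 in KO/Y over +Tx, with the slide block and likewise within the shared slide. The count of lower genes in +Tx over −Tx became 2 in the fit with a slide block and 1 within the shared slide, where 1 +Tx array stands against 3 −Tx arrays, and 5.19% and 3.86% of all genes were lower in these settings, so the 40 genes then stood no higher than all genes. It became 17 in KO/Y over −Tx with a slide block and 6 in KO/Y over +Tx within the shared slide (12.3% and 6% of all genes). With the mean of the probes, 1 gene (*Gmnn*) was higher in +Tx over −Tx. That mean takes in the dim probe on the opposite strand, which differed by 0.53, where the main *Gmnn* probe differed by −0.06. With quantile normalization, 0 genes passed 2-fold in KO/Y over −Tx. Leaving out 1 array at a time, lower genes numbered 8 to 19 in +Tx over −Tx (19 without +Tx replicate 3), 28 to 31 in KO/Y over −Tx and 12 to 16 in KO/Y over +Tx; genes past 2-fold numbered 1 to 2 in KO/Y over −Tx (*Pola2* joined without −Tx replicate 2) and 0 to 1 in KO/Y over +Tx (0 without KO/Y replicate 1 or +Tx replicate 2); and the median in KO/Y over +Tx was −0.23 to −0.16. The count of genes with a more negative second step was 1 to 3 and of those with a less negative one 0 to 2 without 1 array, and 0 genes had a less negative second step with normexp or with slide as a block. With slide as a random block, chosen after seeing the data, 13, 31 and 16 genes were lower in +Tx over −Tx, KO/Y over −Tx and KO/Y over +Tx. Of all genes, 16.3%, 29.4% and 14.3% were lower in that fit. The correlation of arrays on a slide was −0.07 there, so these counts do not show that calls outlast an adjustment for slide. No paired analysis was possible because the arrays carry no replicate number. The cause of these changes was not tested, and 3 arrays per group limit the precision.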
